A study of Mus musculus with 2 samples.

Results

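The 46 genes described here are neural progenitor, neuronal, synaptic and glial genes, listed by name for what they encode. No rule on signal chose them, but the list was drawn up with earlier results of these arrays known. They were followed in PGK12.1, a female mouse embryonic stem cell line, with 1 array of undifferentiated cells (day 0) and 1 array of cells differentiated for 15 days as embryoid bodies, which are floating aggregates that form derivatives of all germ layers. Through probe sets that name a single gene, 45 of the 46 were measured, out of 18193 measured genes, and Grin1, an NMDA receptor subunit gene, was not analysed here. The line was derived from blastocysts of a 129 mother and a (129 X PGK)F1 father, and both arrays carry the same passage range. Stem cells were kept with leukemia inhibitory factor on embryonic fibroblast feeders, and in both groups the feeders were depleted on gelatin before collection or differentiation. The arrays were made to follow X chromosome expression in differentiation, and the labels name no agent that directs cells to a neural fate.

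Neurons arise from neuroepithelial progenitors that express PAX6 and nestin. The proneural factors of the bHLH family, such as the neurogenins and NEUROD1, then start neuronal differentiation. The young neuron builds axons on neuron-specific tubulin, microtubule-associated proteins, stathmins and neurofilaments, and later assembles synapses with vesicle proteins, transmitter enzymes and receptors. Outside the nervous system, many of these genes are silenced by REST, a zinc finger repressor that recruits CoREST and histone deacetylases to its binding sites and is abundant in embryonic stem cells. Oligodendrocytes and astrocytes, the glia marked by genes such as Mbp and Gfap, form after neurons.

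Values are signal intensities per probe set, scaled by the authors to a common level, and each gene is represented by its probe set with the highest mean log2(signal + 16) over both arrays. A log2 difference is day 15 minus undifferentiated on that scale, which understates changes of dim genes, and a fold is a ratio of signals. With 1 array for each condition, no value has a replicate error and no test was possible. A gene is called higher or lower by size alone, at a log2 difference of at least 1 or at most -1. In calls and counts, 2-fold means this difference, so a dim gene can have a signal ratio above 2 and still lie within 2-fold. Counts cover genes above an expression filter set at the median probe set, which corresponds to a signal of 36.5. The 15 bacterial control probe sets that were taken to have no target RNA read at most 35.6. A fold against a signal below that is a lower bound computed with 35.6 in place of the dimmer signal. Between probe sets of one gene, the SD of the log2 difference was 0.53, pooled over the 5157 genes with several of them above the filter.

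The members past 2-fold were mostly lower at day 15, and 7 of the 9 lower ones were genes of the neuronal cytoskeleton or of secretory granules. Those classes held 9 and 2 of the 27 members above the filter. Of 27 members above the filter, 9 (33.3%) were at least 2-fold lower, against 8.41% of all 11960 genes above the filter. They were Ina, Nefl, Nefm, Nefh, Tubb3, Neurod1, Elavl2, Pcsk1n and Chga. Another 4 members (14.8%) were at least 2-fold higher, against 16.5% of all genes: Ncam1, Gria3, Mbp and Nes. The other 14 lay within 2-fold. The median log2 difference of the 27 members was -0.50, beside 0.00052 for all genes above the filter, and 18 of the 27 had a difference below 0, as did 5976 of the 11960 genes. The remaining 18 measured members lay below the filter, and 15 of these read below 35.6 on both arrays with every probe set. By the representing probe set alone, these are the same 15 members, 33.3% of those measured, beside 28.1% of all measured genes. With quantile normalization, which moved the median of all genes to -0.13, the members split into 3 higher and 10 lower. With scaling on the hybridization controls, which moved it to -0.36, they split into 3 higher and 11 lower. Those controls were brighter at day 15 by a mean log2 ratio of 0.39. These are bulk RNA samples, so fewer cells of a type and less RNA per cell cannot be told apart.

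**Figure D1:**
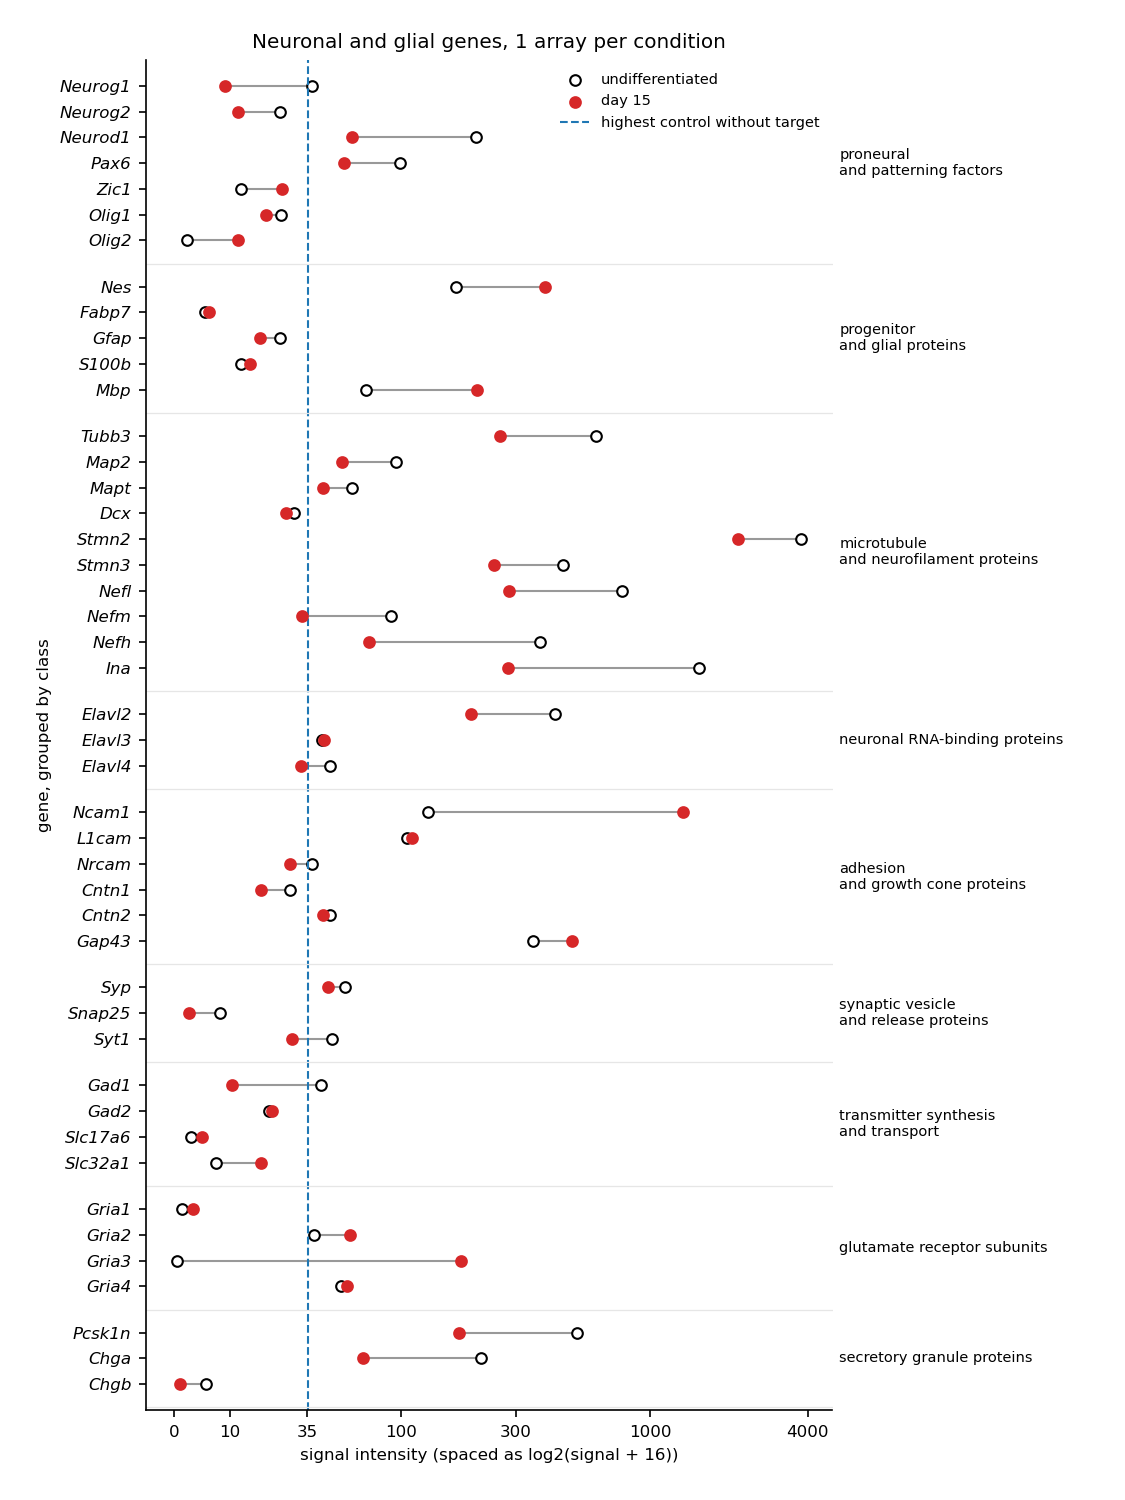
Signal intensity of the 45 measured members, 1 array per condition, on an axis spaced as log2(signal + 16) and grouped by class, with open circles for undifferentiated cells and filled circles for day 15. The dashed line marks 35.6, the highest signal of the controls taken to have no target. The neurofilament genes lie to the right of it in undifferentiated cells and move left at day 15. Of the 4 transmitter genes, 3 lie left of it on both arrays.

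**Figure D2:**
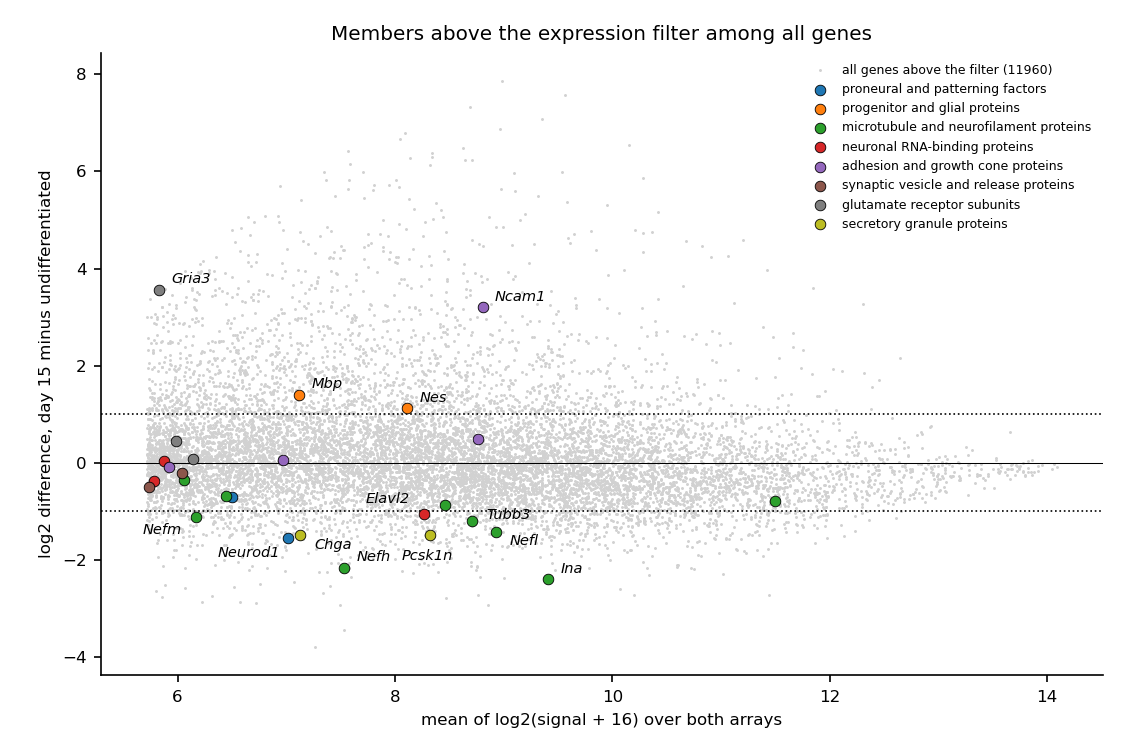
Log2 difference (day 15 minus undifferentiated) against mean log2(signal + 16) for the 11960 genes above the filter in grey and the 27 members above it, coloured by class. Dotted lines mark 2-fold; the 13 members past it are named, with 9 below and 4 above.

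Promoter sequences are shown for the members past 2-fold that have 1 transcription start in the RefSeq promoter table of build GRCm38.p6, because these are the genes on which the counts rest. That table held 34 of the 46 members and 7 of the 13 past 2-fold. It gives the C57BL/6J reference, not the alleles of this line. Each sequence is the 250 bases before the start, 5′ to 3′ on the gene's strand. Capitals mark the E-box CANNTG, the site class of bHLH factors, and the REST half-sites CAGCACC and GGACAGC, each searched on both strands with no overlap between their matches in these windows. The windows are chr19:47014431-47014680 on the plus strand for Ina, chr8:123411303-123411552 on the plus strand for Tubb3, chr2:79456637-79456886 on the minus strand for Neurod1, chrX:7919572-7919821 on the plus strand for Pcsk1n, chr12:102554691-102554940 on the plus strand for Chga and chr3:87970843-87971092 on the plus strand for Nes.
Ina: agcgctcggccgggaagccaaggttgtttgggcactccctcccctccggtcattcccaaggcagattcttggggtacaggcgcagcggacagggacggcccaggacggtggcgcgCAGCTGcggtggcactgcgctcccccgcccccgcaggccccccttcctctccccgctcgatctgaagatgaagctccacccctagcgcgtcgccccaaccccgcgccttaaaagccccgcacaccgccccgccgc
Tubb3: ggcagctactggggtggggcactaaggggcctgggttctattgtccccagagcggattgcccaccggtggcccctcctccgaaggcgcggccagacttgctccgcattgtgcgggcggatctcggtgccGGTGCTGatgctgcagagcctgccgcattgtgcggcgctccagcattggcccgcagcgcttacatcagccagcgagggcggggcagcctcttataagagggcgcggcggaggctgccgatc
Neurod1: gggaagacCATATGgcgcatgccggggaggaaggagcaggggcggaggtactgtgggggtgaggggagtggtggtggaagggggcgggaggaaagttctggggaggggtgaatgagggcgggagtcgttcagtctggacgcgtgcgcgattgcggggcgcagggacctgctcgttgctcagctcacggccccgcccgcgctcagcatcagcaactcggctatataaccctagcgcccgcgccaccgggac
Pcsk1n: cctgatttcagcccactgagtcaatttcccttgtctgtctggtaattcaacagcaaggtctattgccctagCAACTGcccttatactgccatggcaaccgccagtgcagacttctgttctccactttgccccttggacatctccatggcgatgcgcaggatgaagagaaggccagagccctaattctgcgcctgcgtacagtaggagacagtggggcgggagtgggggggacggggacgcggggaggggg
Chga: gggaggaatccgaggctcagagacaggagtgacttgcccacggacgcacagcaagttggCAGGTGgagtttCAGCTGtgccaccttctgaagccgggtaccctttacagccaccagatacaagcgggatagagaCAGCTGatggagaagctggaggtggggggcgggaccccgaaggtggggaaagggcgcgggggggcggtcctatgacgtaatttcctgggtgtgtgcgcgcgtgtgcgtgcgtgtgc
Nes: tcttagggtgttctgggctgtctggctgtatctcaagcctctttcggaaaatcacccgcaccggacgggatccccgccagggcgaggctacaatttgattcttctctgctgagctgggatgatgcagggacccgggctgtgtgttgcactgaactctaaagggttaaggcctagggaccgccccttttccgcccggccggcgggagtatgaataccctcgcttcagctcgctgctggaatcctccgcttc

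Among the 5 promoters of lower genes, the Chga window held 3 E-boxes, and those of Ina, Neurod1 and Pcsk1n held 1 each. The Tubb3 window held 1 match to CAGCACC, on the opposite strand and 121 bases before the start. The Nes window, of the higher gene, held none of the motifs. E-boxes are common: 66.2% of all 32851 promoter windows held 1 or more, and 61.2% of the 49 windows of members did. CAGCACC was in 5.73% of all windows and 4.08% of member windows, and GGACAGC in 5.28% and 6.12%. The GC content of the Ina, Tubb3 and Neurod1 windows was 70.8%, 68.0% and 67.6%, beside a median of 52.4% over all windows. The Chga and Pcsk1n windows had 62.4% and 57.6%, and the window of the higher gene Nes had 58.8%. A match describes letters only, and none of these windows was tested for binding.

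Of 7 proneural and patterning factors, Neurod1 and Pax6 passed the filter, and both had lower signals at day 15. Neurod1, the bHLH factor that drives neuronal and endocrine differentiation, read 206 before and 59.4 after differentiation, 3.47-fold lower. In the pairs of signals below, undifferentiated cells come first. Its second probe set read 144 and 58.0, in the same direction. Pax6, the homeobox factor of cortical, eye and pancreatic progenitors, read 99.3 and 54.7, a log2 difference of -0.71 within 2-fold. Another Pax6 probe set above the filter had -0.89. Neurog1, the neurogenin of sensory and cranial neurons, read 37.5 and 9.00, just above the control bound on the first array only. Neurog2, its relative in the cortex and spinal cord, read 24.2 and 11.9. Zic1, a zinc finger factor of the dorsal neural tube and cerebellum, read 12.8 and 24.9. The oligodendrocyte lineage factors Olig1 (24.8 and 19.7) and Olig2 (2 and 12.0) also stayed under 35.6. So 1 of the 2 genes above the filter was called lower, beside 8.41% of all genes above it. In this class, 4 of the 7 genes read below the control bound on both arrays, beside 28.1% of all measured genes.

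Of 5 genes of progenitor and glial proteins, the 2 above the filter were called higher, beside 16.5% of all genes above it. The other 3 were not above the controls. Nes encodes nestin, the intermediate filament of neural progenitors, also made by muscle precursors and vascular cells. It read 171.5 and 391, 2.28-fold higher at day 15, but its second probe set above the filter read 81.2 and 55.3, in the other direction. The call of Nes rests on 1 of its probe sets, and it fell within 2-fold with quantile normalization (log2 difference 0.87), with scaling on the hybridization controls (0.75), with a pseudocount of 64 (0.95) and with the mean over probe sets (0.19). Mbp encodes myelin basic protein, and its locus also makes golli transcripts outside myelin. Its representing probe set read 69.2 and 209, 3.02-fold higher, and the other one above the filter read 46.3 and 60.1. The mean over the 8 Mbp probe sets gave a log2 difference of 0.56. Fabp7, the fatty acid binding protein of radial glia, read 4.90 and 5.70. Gfap, the astrocyte intermediate filament, read 24.4 and 18.0, and S100b, a calcium-binding protein of astrocytes and Schwann cells, 12.8 and 15.1.

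Of the 10 microtubule and neurofilament genes, 9 were above the filter, and all 9 had lower signals at day 15. Of these 9, 5 (55.6%) were at least 2-fold lower, beside 8.41% of all genes above the filter. The other 4 had log2 differences from -0.87 to -0.36, and the median of the 9 was -1.11. The direction of all 9 was the same with the other probe set choices and with quantile normalization. The pseudocounts and the scaling on the hybridization controls could not turn it. A pseudocount does not change the sign for a given probe set, and that scaling lowers every difference. Ina, the alpha-internexin gene of early neuronal intermediate filaments, had the largest loss among the members, with signals of 1543 before and 279 after differentiation (5.53-fold lower). Its other 2 probe sets read 771 and 197, and 423 and 85.3, so all 3 were lower. Nefh, the heavy neurofilament chain of mature axons, read 374 and 71.4 (5.24-fold lower). Nefl, the light chain that the other chains assemble on, read 781 and 280.3 (2.79-fold lower), with a second probe set at 220.4 and 73.1. Nefm, the medium chain, read 90.1 and 33.0 (at least 2.53-fold lower). All 4 neuronal filament genes were past 2-fold in the same direction, but with a pseudocount of 64 Nefm came within it (log2 difference -0.67).

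Among the microtubule genes, Tubb3, the neuron-enriched beta-tubulin that the TUJ1 antibody detects, read 618 and 259 (2.39-fold lower). Stmn2, the stathmin of growth cones that binds free tubulin, read 3787 and 2174.5 and so kept a strong signal at day 15, with a log2 difference of -0.80. Its second probe set read 2229 and 1153, also lower. Stmn3, a related stathmin, had -0.87 (459.5 and 243.7). Its second probe set, at 204 and 78.5, had -1.22. Both stathmins lay just inside the 2-fold line, as Elavl2 (-1.05), Nefm (-1.11) and Nes (1.12) lay just outside it. With scaling on the hybridization controls both stathmins were past 2-fold, and with quantile normalization Stmn3 was. Map2, which stabilises dendritic microtubules, read 94.5 and 53.1, with a log2 difference of -0.68. Mapt, the axonal tau gene, read 59.5 and 42.9 with -0.36. Dcx, the X-linked doublecortin gene of migrating neurons, was under 35.6 on both arrays (29.5 and 26.7), as were its other 3 probe sets.

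The ELAV-like RNA-binding proteins stabilise neuronal transcripts, and 1 of the 3 was called lower, beside 8.41% of all genes above the filter. Elavl2, which is also expressed in germ cells, read 427 and 198, 2.15-fold lower at day 15. Of its other 3 probe sets above the filter, those at 351 and 132 and at 138 and 89.3 were lower as well, and the dimmest read 37.3 and 38.5. Elavl2 was within 2-fold with a pseudocount of 64 and with the mean over probe sets. Elavl3 and Elavl4, the members made in postmitotic neurons, were dim: 42.2 and 43.3 for Elavl3, and 46.5 and 32.4 for Elavl4. The sign of the Elavl3 difference (0.027) turned with the mean over probe sets and with both other scalings.

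Adhesion and growth cone genes held 1 call, the gain of Ncam1. That is 1 of 4 genes above the filter (25%), beside 16.5% of all genes above it that were higher. Ncam1, the neural cell adhesion molecule that muscle and mesenchymal cells also make, read 131 and 1344.5, 10.3-fold higher at day 15. The other 4 Ncam1 probe sets above the filter were also higher, with log2 differences from 1.07 to 2.67, while 2 below the filter had -0.12 and -0.90. Gap43, a growth cone protein of extending axons, was at 350.4 and 497, a log2 difference of 0.49 within 2-fold. L1cam, an X-linked axonal adhesion molecule, read 106.3 and 112, and its small difference (0.067) was below 0 under quantile normalization, scaling on the hybridization controls and the mean over probe sets. The other immunoglobulin family genes of axons were near or below the control bound: Cntn2 read 46.3 and 42.6, Nrcam 37.4 and 28.1 and Cntn1 28.2 and 18.1.

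No gene of synaptic vesicles or of transmitter synthesis and transport was called, and Snap25, Gad2, Slc17a6 and Slc32a1 read below the control bound on both arrays. Syp, the X-linked gene of the vesicle protein synaptophysin, read 54.9 and 45.3. Syt1, the calcium sensor of release, read 47.5 and 28.8. Snap25, a SNARE protein of the presynaptic membrane, read 7.90 and 2.30. Among the transmitter genes, the GABA-synthesising enzyme genes Gad1 (41.7 and 10.5) and Gad2 (20.7 and 21.7) did not pass the filter. The vesicular transporter genes did not pass it either: Slc17a6, for glutamate, read 2.60 and 4.50, and Slc32a1, for GABA and glycine, 7.10 and 18.2. Gad1 and Neurog1 had log2 differences of -1.12 and -1.10 without passing the filter, and both would count as lower with no filter or with a filter on the control bound.

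Of 3 AMPA receptor subunit genes above the filter, 1 (33.3%) was called higher, Gria3, beside 16.5% of all genes above the filter. These subunits form the channels of fast glutamate transmission. The X-linked Gria3 was listed at 0.50 in undifferentiated cells and read 179.5 at day 15, at least 5.04-fold higher. Gria3 passed the filter through its day 15 signal alone. Its other probe set read 30.6 and 42.6, a log2 difference of 0.33 below the filter. With a pseudocount of 1 that second probe set represents the gene, and the difference was then 0.46. Gria2, whose edited subunit keeps calcium out of the channel, read 38.2 and 58.4, Gria4 52.7 and 56.3, and Gria1 1.10 and 2.90. The difference of Gria4 (0.074) turned below 0 with quantile normalization and with scaling on the hybridization controls.

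Of the 3 secretory granule members, only Pcsk1n and Chga passed the filter. Both were called lower, beside 8.41% of all genes above the filter. Pcsk1n, the X-linked gene of proSAAS, an inhibitor of the prohormone convertase PCSK1, read 519.6 and 175.9, 2.95-fold lower at day 15. Chga, the chromogranin A gene of neuroendocrine granules, read 217 and 67.4, 3.22-fold lower. Each has 1 probe set. Chgb, which encodes the related chromogranin B, read 5.20 and 0.90. The members on the X chromosome were Pcsk1n, Gria3, L1cam, Syp and Dcx, and all but Dcx passed the filter. Of these, Pcsk1n was called lower and Gria3 higher, beside 8.41% and 16.5% of all genes above the filter.

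**Figure D3:**
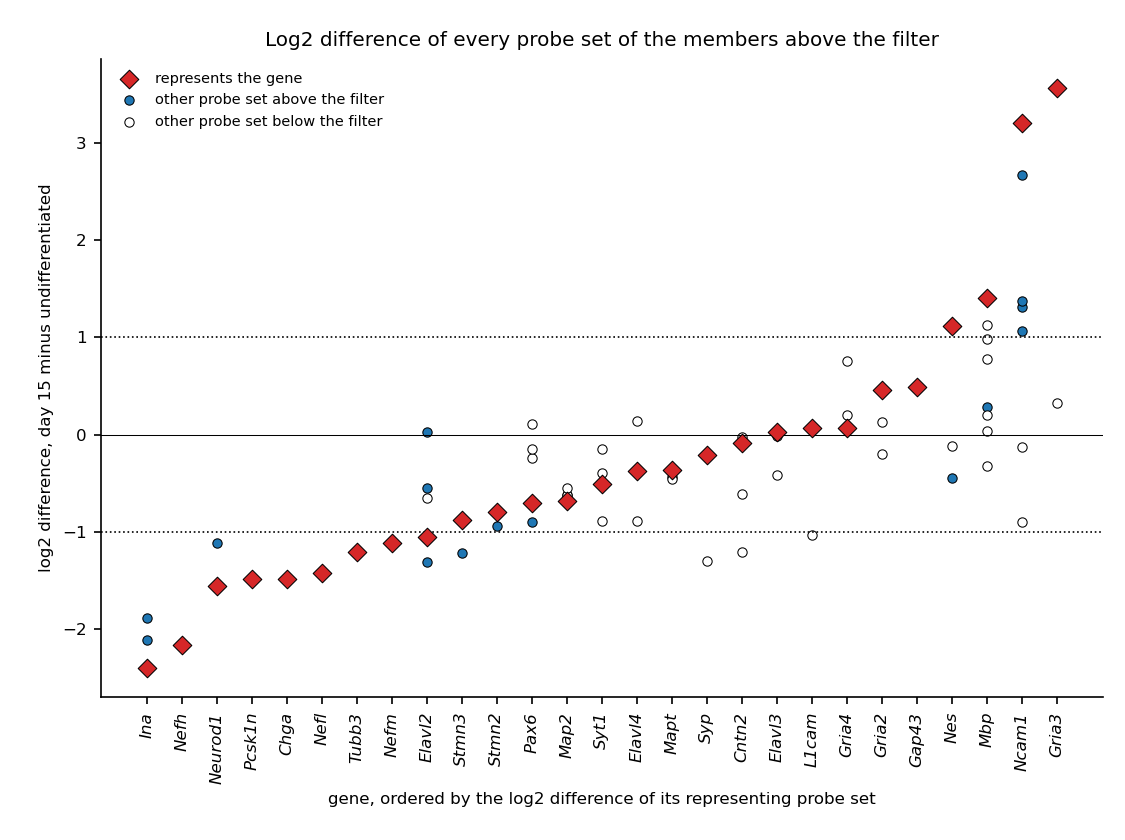
Log2 difference (day 15 minus undifferentiated) of every probe set of the 27 members above the filter, ordered by the representing probe set (diamonds), with other probe sets above the filter as filled and below it as open circles. All 3 probe sets of Ina lie below -1; Nes and Elavl2 have probe sets above the filter on both sides of 0.

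Of the 27 members above the filter, 10 had several probe sets above it. In 8 of these all such probe sets had 1 direction, and the exceptions were Nes and Elavl2. Probe sets of a gene can read different transcript ends, and which transcripts each one reads was not tested.

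Other genes of the nervous system, from lists without any member and at the deposited scaling alone, were called in both directions. Among 15 further neuronal genes above the filter, 3 (20%) were called higher and 1 (6.67%) was called lower, with a median of -0.021. These shares are near those of all genes above the filter (16.5% and 8.41%). Eno2, the neuronal enolase of glycolysis, read 32.6 and 584 (at least 16.4-fold higher), Dlg4, the postsynaptic scaffold PSD-95, 29.6 and 169.9 (at least 4.77-fold) and Dpysl3, a growth cone phosphoprotein, 397 and 1151 (2.90-fold). For Dpysl3, the other probe sets that passed the filter gave 0.03 and 0.37 on the log2 scale. Celf4, an RNA-binding protein of neurons, read 223 and 95.6 (2.34-fold lower). Of 10 further early neural factors 2 were higher and 1 lower (median 0.032). Sox1, an early marker of the neural plate, read 43.7 and 126.5 (2.89-fold higher), Dlx2, of forebrain interneuron progenitors, 31.8 and 84.6 (at least 2.38-fold), and En1, of the midbrain and hindbrain, 80.3 and 29.9 (at least 2.26-fold lower). Isl1, a motor neuron and heart progenitor factor, read 35.6 and 78.9, a signal ratio of 2.22. Its log2 difference was 0.88, so it was not called. Of 11 further granule genes measured, 9 lay below the filter. Among the 2 above it, Cpe, the carboxypeptidase of prohormone processing, read 98.8 and 1098 (11.1-fold higher), and the noradrenaline enzyme gene Dbh had 0.61. The second Cpe probe set, below the filter, read 31.8 and 6.80. Vgf, also below the filter, read 3.30 and 86.0, a log2 difference of 2.40. Of the 11, 3 had a difference below 0.

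Further glial genes above the filter numbered 9, of which 4 (44.4%) were higher and 2 (22.2%) lower (median 0.41). Among all genes above the filter these shares were 16.5% and 8.41%. The lower ones were Glul, at 3685.5 and 1646 (2.24-fold lower), and Aldh1l1, at 79.4 and 29.2 (at least 2.23-fold lower). Some of the higher ones are also made by other cells. Pmp22, a peripheral myelin protein also found in fibroblasts, read 32.1 and 3626 (at least 102-fold higher). Pdgfra, the receptor of oligodendrocyte precursors and of mesenchyme, read 4.30 and 287 (at least 8.06-fold). Vim, the mesenchymal and progenitor filament, read 3030 and 13529 (4.46-fold), and Slc1a3, the glial glutamate transporter GLAST, 69.9 and 310.5 (4.44-fold). Sox10, the defining factor of neural crest glia and oligodendrocytes, read 49.4 and 32.8.

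Markers of other cells moved over the same days. For the counts below, 16.5% of all genes above the filter were higher and 8.41% were lower. Of 10 fibroblast and matrix genes, which include Vim and Thy1 of the glial and neuronal lists, 9 were at least 2-fold higher (median 5.49). Col1a1 read 17.2 and 7728, Lum 10.2 and 2659, Postn 25.6 and 3712 and Col3a1 39.0 and 10400.4, so that 3 of these 4 were below 35.6 on the undifferentiated array. Of 5 muscle genes above the filter 4 were higher: Tnnt2 (5.90 and 1229), Actc1 (61.0 and 463), Des (58.3 and 397) and Acta1 (67.3 and 309). The other, the titin gene Ttn, was at least 2.89-fold lower (102.8 and 25.8). Muscle and mesenchyme also make Ncam1 and nestin, and the part of these cells in the Ncam1 and Nes values was not tested. Of 9 neural crest genes above the filter 3 were higher and 2 lower: Snai2 read 19.5 and 2923.5, Ednrb 17.7 and 323, Twist1 27.7 and 171.3 and Erbb3 672 and 212. The 7 pluripotency genes all had lower signals at day 15, 3 of them past 2-fold (median -0.94). Pou5f1 read 7838 and 2932, Esrrb 3178 and 1226, Zfp42 5583 and 2555 and Nanog 5470 and 2835. The pluripotency genes and the neurofilament genes thus had lower signals together, and whether both come from the same cells was not tested.

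The repressor of neuronal genes was itself lower at day 15. Rest read 3096 and 999, 3.10-fold lower, and its other probe set above the filter read 58.2 and 46.9. Rcor2, the CoREST family member of stem and neural cells, read 1360 and 413 (3.29-fold lower), and Sin3a, the other corepressor scaffold that REST binds, 1431 and 679 (2.11-fold lower). Rcor1, which encodes CoREST itself, read 635 and 1792 (2.82-fold higher), and its other 2 probe sets were higher as well. Of 9 measured genes of the REST complex 3 (33.3%) were therefore lower and 1 (11.1%) was higher, beside 8.41% and 16.5% of all genes above the filter. The other 5 lay within 2-fold. Of the members past 2-fold, 9 had lower signals at day 15, as Rest had, and 4 had higher signals. No link between Rest and the members was tested.

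**Figure D4:**
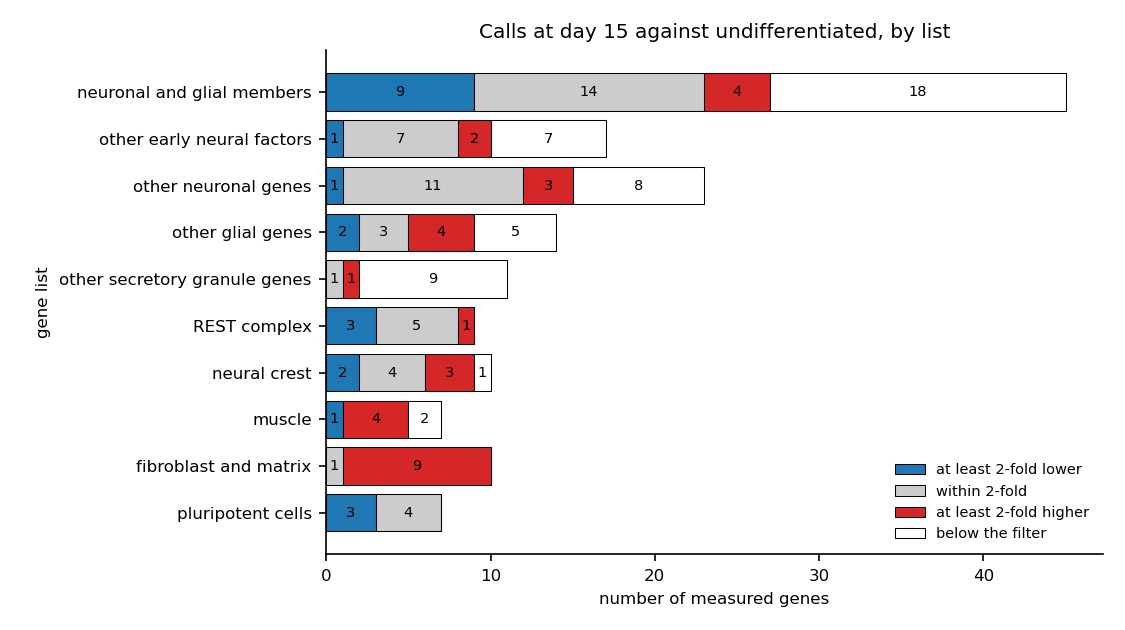
Number of measured genes in each list that were at least 2-fold lower, within 2-fold, at least 2-fold higher, or below the expression filter at day 15 against undifferentiated cells. The members have 9 lower and 4 higher of 27 above the filter, and the fibroblast and matrix genes 9 higher of 10.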

How the data were processed

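Total RNA of each condition was hybridised to 1 Affymetrix array after biotin labelling, per the labels' protocols. The deposited values are linear signal intensity of 45101 probe sets on each array. How probes were summarised is not given in the sources used here. With 2% trimmed from each tail, the array means were 250.002 and 250.001, so the authors had scaled the deposited intensity values. Of 45037 probe sets that are not controls, 34945 named 1 gene in the platform annotation, 932 several and 9160 were not listed there. Symbols were updated through the RefSeq table of GRCm38.p6, with 34741 matched on the identifier, 143 on the symbol and 61 on neither. Signals were taken to log2 with a pseudocount of 16. Python 3.11.15, numpy 2.4.6 and pandas 2.3.3 were used. The calling step was tested on simulated data with raised signals and planted changes well past 2-fold. That test does not cover dim genes or calls near 2-fold. The number of arrays limits the precision, and no p-value can be given. The members and lists were chosen with earlier results of these data known. All members are named, and of each other list up to 4 genes above the filter with the largest absolute log2 difference, with Rest and Rcor1 in any case. Sox10, Glul, Aldh1l1, Thy1, Ttn, Vgf and the intermediate filament genes of the last section were chosen after their values were seen. The bound of 35.6 was also set after the data were seen.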

Additional observations from a re-analysis of the deposited data

How the results depend on the processing

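The alternatives were no filter, a filter at the 75th percentile, pseudocounts of 1 and 64, the mean over probe sets, probe sets with suffix a, s or x left out, quantile normalization, scaling on the hybridization controls and, chosen after seeing the data, a filter on the control bound. All 13 members past 2-fold kept their direction wherever they were measured. A filter or a pseudocount cannot turn the sign of a given probe set. Scaling on the hybridization controls lowers every difference, so it could not turn the 9 lower members. The members at least 2-fold lower numbered 5 of 10 with the filter at the 75th percentile, where fewer genes were counted, and 7 to 11 otherwise, against 9. The members at least 2-fold higher numbered 2 with that filter and 2 with the mean over probe sets, where Nes and Mbp came within 2-fold, against 4. The mean over probe sets moved the members' median from -0.50 to -1.08, over 16 members above the filter in place of 27. Of all genes, 907 were at least 2-fold higher with the filter at the 75th percentile, against 1975, and 2248 at least 2-fold lower with scaling on the hybridization controls, against 1006. The share of called genes that were higher was 66.3% as deposited, 54.6% with quantile normalization and 37.7% with that scaling. Signal over background limits the 18 members below the filter.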

Other observations

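Intermediate filament genes, a family that the members Ina, Nefl, Nefm, Nefh, Nes and Gfap belong to, did not move together. The list was put together after values were seen. The 4 neuronal filament genes were past 2-fold lower at day 15, as were the B-type lamin genes of the nuclear envelope, Lmnb1 (3525 and 1579) and Lmnb2 (585 and 178). Lmna, the lamin A and C gene that marks differentiated cells, read 253 and 2441, 9.66-fold higher. The filaments of mesenchyme and muscle, Vim and Des, were 4.46-fold and 6.80-fold higher. The simple epithelial keratin genes were higher as well: Krt8 read 317 and 1528.5, Krt18 329 and 1575, Krt19 122 and 877 and Krt7 20.6 and 80.3. Prph, the filament of peripheral neurons, lay within 2-fold at 80.1 and 68.0. The keratins of stratified epithelium, Krt5 (60.2 and 61.3) and Krt14 (17.2 and 18.4), differed by less than 1.1-fold or lay below the controls.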
